A study of Ogataea parapolymorpha with 2 samples.

Results

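Of the 5408 rows of the deposited gene tables of the yeast Ogataea parapolymorpha, 57 genes carried a COG identifier of an aminoacyl-tRNA synthetase or of a translation factor. COG identifiers name groups of orthologous proteins. The 57 were chosen by 31 such identifiers, with no measured value in the rule: 20 groups of synthetases held 35 genes and 11 groups of translation factors held 22. The series, filed as Hansenula polymorpha, profiled strain DL-1 (DL1-L in the growth notes) of this methylotrophic yeast with the genotype leu-, grown in YPD medium at 37 °C to an optical density of 1.0. Part of the culture was harvested untreated, and the rest received 20 mM caffeine for 2 h; both libraries come from the same leu- strain and carry no other alteration in the labels. Each of the 2 groups was 1 library, so nothing below could be checked against replicates, and the conditions were not tested against each other. The labels do not say that an untreated part was kept for the same 2 h, so that caffeine and time in culture cannot be told apart.

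Aminoacyl-tRNA synthetases join each amino acid to its transfer RNA, and translation factors then start, extend and end the protein chain on the ribosome. Yeasts need both in the cytosol and, as separate proteins or as products of a shared gene, in mitochondria. In budding yeast, uncharged transfer RNA activates the kinase Gcn2, whose target is the alpha subunit of initiation factor 2, and caffeine inhibits the TOR kinase that governs translation.

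None of the genes was 2-fold apart between the libraries, and under TMM scaling most translation factor genes and most abundant synthetase genes were slightly lower after caffeine, while most low-level synthetase genes were higher. A gene was compared where either library gave it 10 CPM or more, CPM being counts scaled to a common library total, and 56 of the 57 met this. The fold is the log2 ratio of caffeine-treated over untreated counts after TMM scaling (trimmed mean of M values), and its interval is an exact 95% one that covers counting error only. Of the 56, 0 stood 2-fold or more above their untreated level, as 7.12% of all 4861 compared genes did, and 0 stood 2-fold or more below it, as 5.27% did. Within 1.5-fold lay 54 of the 56, beside 70.5% of all compared genes. The log2 fold was above 0 for 17 and below 0 for 39, beside 51.1% above 0 among all compared genes. Their median log2 fold was -0.13, against 0.01 over all compared genes. The 35 synthetase genes had a median log2 fold of -0.11, with a range of -0.84 to 0.58, and 13 were above 0. The 21 compared factor genes had a median log2 fold of -0.14, with a range of -0.45 to 0.20, and 4 were above 0.

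These signs depend on the scaling. Counted reads came to 19184978 without caffeine and to 17789838 with it, and dividing by these totals in place of TMM adds 0.22 to every log2 fold. With library totals 34 of the 56 members were above 0, beside 68.1% of all compared genes, and 0 passed 2-fold. Differences between members do not move with the scaling. The smallest count of a compared member was 434, and for 47 of the 56 the counting interval of the log2 fold did not include 0, beside 81.3% of all compared genes. A narrow interval here shows depth and says nothing of the variation between cultures.

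**Figure D1:**
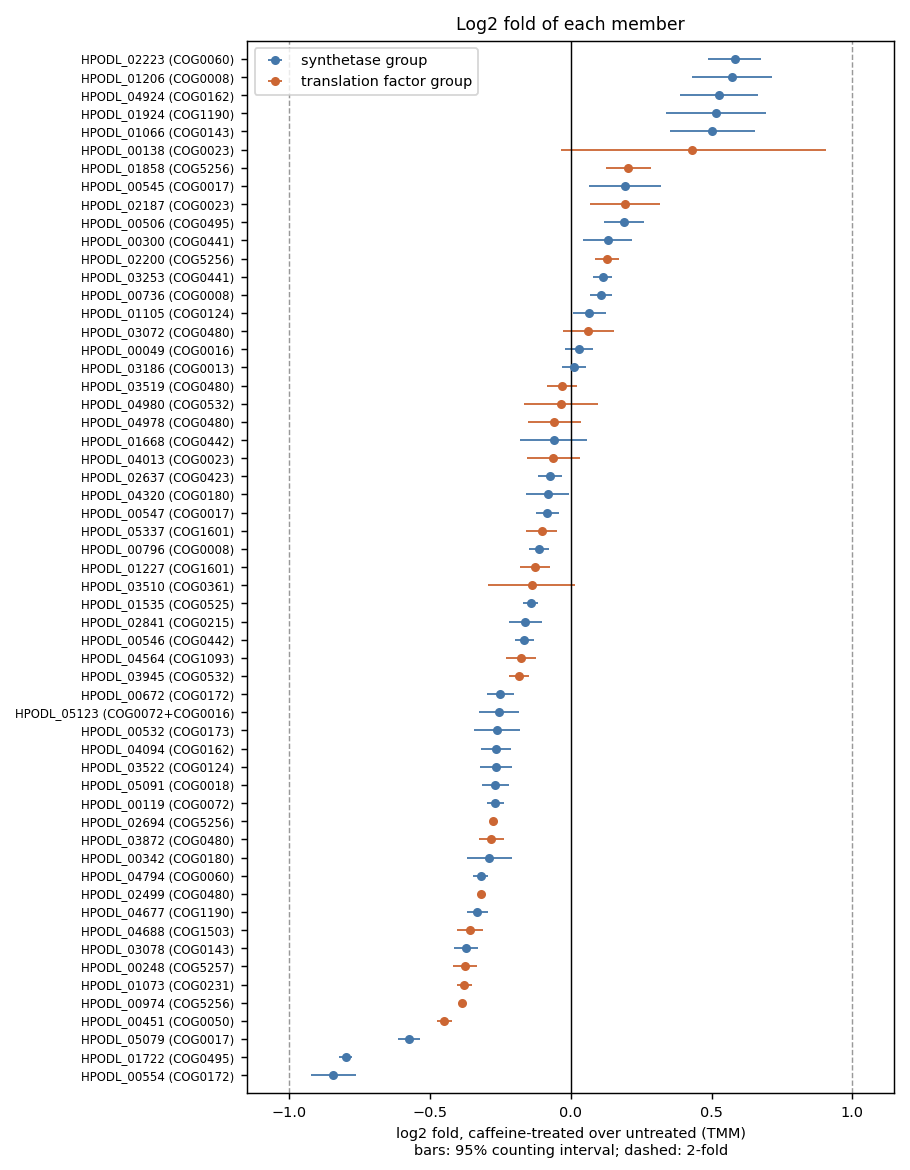
Log2 fold of caffeine-treated over untreated for each of the 57 genes (x axis, TMM scaling), ordered by value, with 95% counting intervals as bars and dashed lines at 2-fold. All points lie between the dashed lines, from -0.84 to 0.58, and the 5 highest, between 0.50 and 0.58, are synthetase genes.

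Levels are given throughout as TMM-scaled RPKM, which is scaled CPM per kb of listed gene length, in the untreated and then the caffeine-treated library. The 57 genes took 4.68% of all counted reads in the untreated library and 4.46% in the caffeine-treated one. The synthetases accounted for 1.49% and 1.47%, and the factors for 3.19% and 2.99%. Most of the factors' share lay in 3 elongation factor genes, which took 2.49% and 2.31%. By mean level 35 of the 56 compared members were among the 1215 genes of highest level and 3 among the 1216 of lowest level.

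Elongation factors held the highest levels. Elongation factor 1 alpha brings charged transfer RNA to the ribosome, and its group, COG5256, had 4 genes. The level of HPODL_00974 was 6949 and then 5316, the 5th highest of all compared genes, and its log2 fold was -0.39 (-0.40 to -0.38). HPODL_02694, of the same listed length of 1380 bases, had levels of 5853 and 4835 and a log2 fold of -0.28 (-0.29 to -0.26). Both were lower in the caffeine-treated library. Reads of near-identical genes could have been divided in a way that the sources do not state, so the split between these 2 is uncertain, and their counts added together gave a log2 fold of -0.33.

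The other COG5256 genes were far lower in level and went the other way. This group also takes in relatives of the elongation factor, which in budding yeast include the release factor Sup35 and the ribosome rescue factor Hbs1, and the tables do not say which protein each gene encodes. HPODL_02200 had levels of 252 and 275 and a log2 fold of 0.13 (0.09 to 0.17). HPODL_01858 had levels of 59.7 and 68.8 and a log2 fold of 0.20 (0.12 to 0.28), the highest among the compared factor genes. Against HPODL_00974 the difference in log2 fold was 0.51 (0.47 to 0.56) for the first and 0.59 (0.51 to 0.67) for the second, whatever the scaling.

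The COG0480 group holds elongation factor 2, which moves the ribosome along the message, with its mitochondrial counterparts and related GTPases of ribosome assembly and splicing. Of its 5 genes, HPODL_02499 stood far above the rest with levels of 3563 and 2854 and a log2 fold of -0.32 (-0.33 to -0.31). Its counts were 164020 and 141728. HPODL_03872 had levels of 213 and 175 and a log2 fold of -0.28 (-0.33 to -0.24), close to that of HPODL_02499, with a difference of 0.04 (-0.01 to 0.08). The remaining genes of the group had nearly equal levels in both libraries. HPODL_03519 had levels of 104 and 102, HPODL_03072 of 40.1 and 41.9, and HPODL_04978 of 34.9 and 33.5. Their log2 folds were -0.03, 0.06 and -0.06, each with an interval that held 0.

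Elongation factor Tu, the bacterial-type counterpart that yeasts use in mitochondria, had 1 gene. HPODL_00451 (COG0050) had levels of 1159 and 848 and the lowest log2 fold of the factors, -0.45 (-0.48 to -0.42). Factor 5A helps ribosomes past difficult stretches such as runs of proline, and its gene HPODL_01073 (COG0231) had levels of 2763 and 2124 with a log2 fold of -0.38 (-0.41 to -0.35). Both were lower in the caffeine-treated library, and both stay below 0 with library totals, at -0.23 and -0.16. The listed length of HPODL_01073 is 524 bases. The authors' deposited RPKM values for it, 4516 and 3980, are higher than the levels given here, and the length behind them is not stated.

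Initiation factor 2 carries the initiator transfer RNA and is built of alpha, beta and gamma subunits. The alpha subunit gene HPODL_04564 (COG1093) had levels of 352 and 311, a log2 fold of -0.18 (-0.23 to -0.12). The gamma subunit gene HPODL_00248 (COG5257) had levels of 334 and 258, a log2 fold of -0.38 (-0.42 to -0.33). The level of gamma was 0.95 times that of alpha without caffeine and 0.83 times with it, a difference in log2 fold of -0.20 (-0.27 to -0.13). The group COG1601, which holds the beta subunit and the related factor 5, had 2 genes. HPODL_01227 had levels of 377 and 345 and HPODL_05337 of 256 and 238, with log2 folds of -0.13 (-0.18 to -0.07) and -0.10 (-0.16 to -0.05). The 4 genes thus lay within a range of levels from 256 to 377 in the untreated library, and all 4 were slightly lower after caffeine under TMM. With library totals only the gamma gene among them was below 0, at -0.16.

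Of the compared genes in the other initiation factor groups, only HPODL_02187 had a log2 fold above 0. The group COG0532 takes in factor 5B, which joins the ribosomal subunits, and related factors. Which protein each of its genes encodes is not stated. The higher of the group's 2 genes, HPODL_03945, had levels of 243 and 214 and a log2 fold of -0.19 (-0.22 to -0.15). The lower, HPODL_04980, had levels of 28.9 and 28.2 and a log2 fold of -0.04 (-0.17 to 0.10). Factor 1A and its bacterial relative make up COG0361, whose gene HPODL_03510 had levels of 74.4 and 67.6 and a log2 fold of -0.14 (-0.29 to 0.02). The SUI1 group (COG0023) holds initiation factor 1, which guards start codon choice, and proteins with a domain like it. Its shortest gene, HPODL_04013 of 408 bases, had levels of 253 and 242 and a log2 fold of -0.06 (-0.16 to 0.03). Its deposited RPKM values were 622 and 675, so that it stood 16.3 times above HPODL_02187 by those and 7.01 times by the levels used here. HPODL_02187 had levels of 33.0 and 37.7, with a log2 fold of 0.19 (0.07 to 0.32). The member that missed the minimum, HPODL_00138, had 66 and 96 counts and levels of 6.8 and 9.2, and its interval for the log2 fold ran from -0.04 to 0.91. Chain ends are read by release factor 1, whose gene HPODL_04688 (COG1503) had levels of 363 and 284 and a log2 fold of -0.36 (-0.40 to -0.31).

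**Figure D2:**
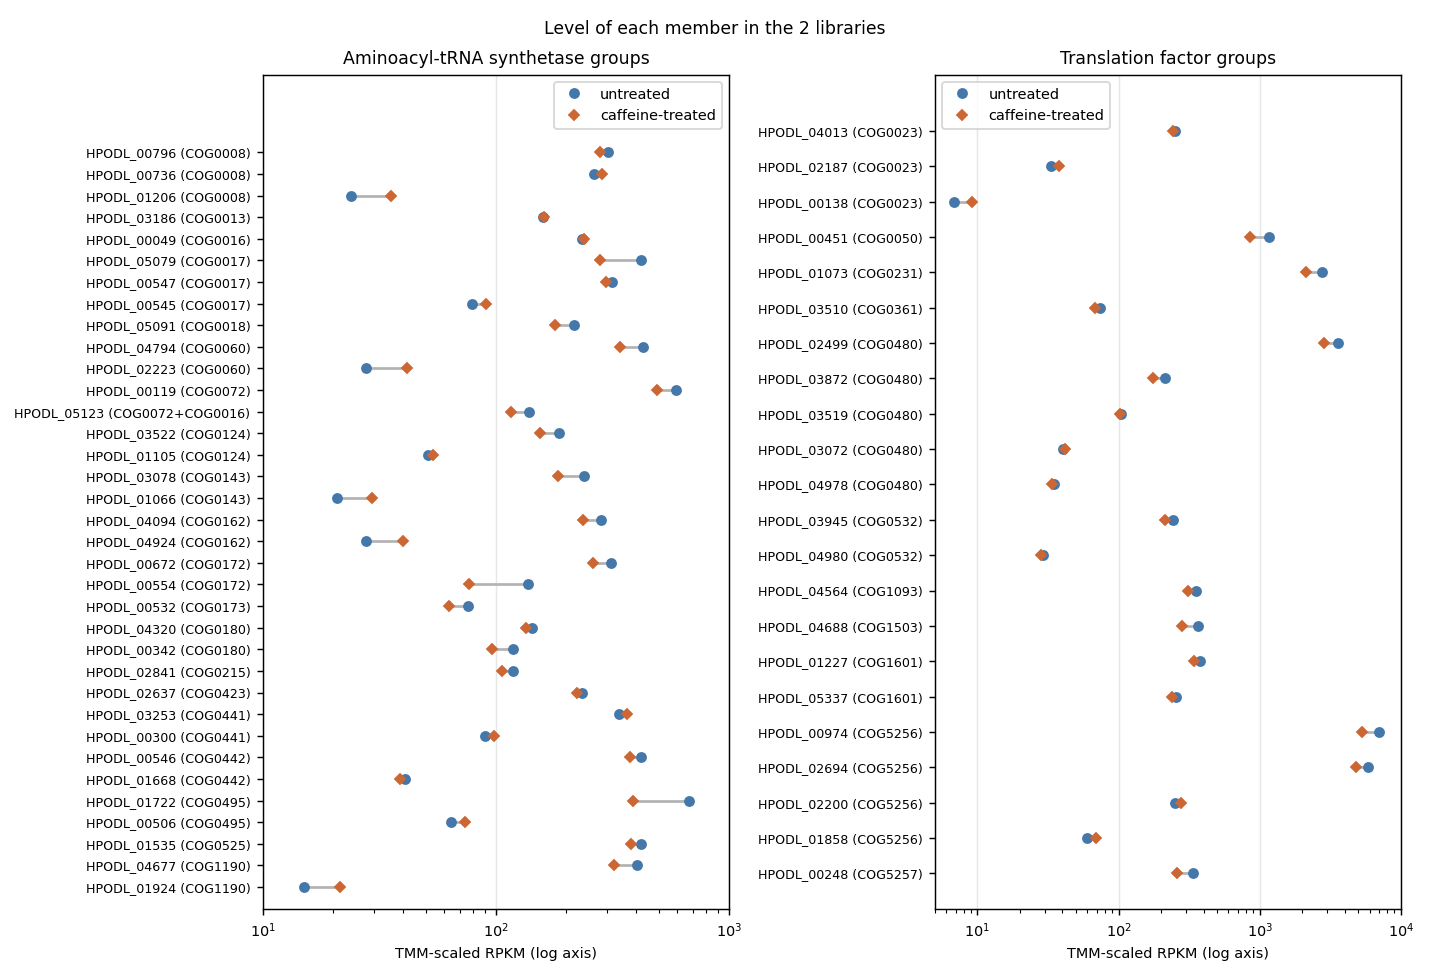
Level of each of the 57 genes in the untreated library (circles) and the caffeine-treated library (diamonds), in TMM-scaled RPKM on log axes, with synthetase groups on the left and factor groups on the right. Factor genes span levels from under 10 to 6949, and the low-level synthetase genes HPODL_01206, HPODL_02223, HPODL_04924, HPODL_01066 and HPODL_01924 have the caffeine-treated point to the right of the untreated one.

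Among the synthetases the 2 largest differences were toward lower levels after caffeine. HPODL_00554, of the seryl-tRNA synthetase group COG0172, had levels of 138 and 76.7, a log2 fold of -0.84 (-0.92 to -0.76). HPODL_01722, of the leucyl group COG0495, was the synthetase gene of highest level in the untreated library, at 675, and stood at 388 with caffeine, a log2 fold of -0.80 (-0.82 to -0.78). These were the 2 members at least 1.5-fold apart, being 1.80-fold and 1.74-fold lower, where 13% of all compared genes were at least 1.5-fold lower and 16.5% at least 1.5-fold higher. HPODL_05079, of the group COG0017 of asparaginyl and aspartyl enzymes, lay just inside that limit at 1.49-fold lower, with levels of 418 and 280 and a log2 fold of -0.58 (-0.62 to -0.54). All 3 were below 0 with library totals as well, at -0.63, -0.58 and -0.36.

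On the upper side stood 5 genes with levels between 15.0 and 41.6, each the lowest-level gene of its group. HPODL_02223, of the isoleucyl group COG0060, had levels of 27.8 and 41.6, with 1470 and 2374 counts and a log2 fold of 0.58 (0.49 to 0.68). HPODL_01206, of the glutamyl and glutaminyl group COG0008, had levels of 23.8 and 35.3 and a log2 fold of 0.57 (0.43 to 0.71). HPODL_04924, of the tyrosyl group COG0162, had levels of 27.6 and 39.8 and a log2 fold of 0.53 (0.39 to 0.67). All 3 differed by less than 1.5-fold. HPODL_01924, of the lysyl group COG1190, had the lowest levels of any synthetase gene, 15.0 and 21.4, and a log2 fold of 0.52 (0.34 to 0.69). HPODL_01066, of the methionyl group COG0143, had levels of 20.8 and 29.4 and a log2 fold of 0.50 (0.35 to 0.65).

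In each of these 5 groups the gene of highest level was on the other side of 0 under TMM. The isoleucyl gene HPODL_04794 had levels of 427 and 342, a log2 fold of -0.32 (-0.35 to -0.29). The lysyl gene HPODL_04677 had levels of 403 and 320, a log2 fold of -0.33 (-0.37 to -0.30), and the methionyl gene HPODL_03078 of 239 and 185, a log2 fold of -0.37 (-0.41 to -0.33). The tyrosyl gene HPODL_04094 had levels of 283 and 236, a log2 fold of -0.26 (-0.32 to -0.21). Between the low and the high gene the log2 fold differed by 0.90 (0.80 to 1.00) in the isoleucyl group, by 0.87 (0.72 to 1.03) in the methionyl group, by 0.85 (0.67 to 1.03) in the lysyl group and by 0.79 (0.65 to 0.94) in the tyrosyl group. The leucyl group showed the widest gap. Its low gene HPODL_00506 had levels of 64.4 and 73.4 and a log2 fold of 0.19 (0.12 to 0.26), which is 0.99 (0.91 to 1.06) above that of HPODL_01722. The high gene's level was thus 10.5 times the low gene's without caffeine and 5.29 times with it.

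Many yeasts keep a gene for the cytosolic and another for the mitochondrial enzyme of 1 amino acid, and the tables do not say where any of these products work. COG0008 and COG0017 each join enzymes of a pair of amino acids, so that their genes need not be copies of 1 enzyme. In COG0008 the genes of higher level were near each other, HPODL_00796 at levels of 302 and 279 and HPODL_00736 at 263 and 284. Their log2 folds were -0.11 (-0.15 to -0.08) and 0.11 (0.07 to 0.15). Their order of level turned with caffeine, but there the counting intervals of the levels overlapped, at 274 to 283 and 279 to 289. In COG0017 HPODL_05079 was above HPODL_00547 only in the untreated library. The counting intervals of their caffeine-treated levels, 274 to 286 and 291 to 303, did not overlap. HPODL_00547 had levels of 315 and 297 and a log2 fold of -0.08 (-0.12 to -0.04). The third gene of that group, HPODL_00545, is 639 bases long and had levels of 79.1 and 90.5 and a log2 fold of 0.19 (0.07 to 0.32). HPODL_00545, the prolyl group gene HPODL_00546 and HPODL_00547 follow each other directly in the RefSeq gene order of assembly Hansenula_2.

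Not every group showed a gap of this kind. The threonyl group COG0441 had both genes above 0, HPODL_03253 at levels of 336 and 364 with a log2 fold of 0.11 (0.08 to 0.15) and HPODL_00300 at levels of 89.4 and 97.9 with a log2 fold of 0.13 (0.04 to 0.22). In the prolyl group COG0442 the high gene HPODL_00546 had levels of 420 and 375 and a log2 fold of -0.17 (-0.20 to -0.13). Its low counterpart HPODL_01668 had levels of 40.5 and 38.9 and a log2 fold of -0.06 (-0.18 to 0.06), which differs by 0.10 (-0.02 to 0.22), an interval that holds 0. The seryl and tryptophanyl groups ran the other way, with the lower gene further below 0. The seryl gene HPODL_00672 had levels of 311 and 262 and a log2 fold of -0.25 (-0.30 to -0.20), against -0.84 for HPODL_00554. The tryptophanyl genes (COG0180) were HPODL_04320, at levels of 143 and 135 with a log2 fold of -0.08 (-0.16 to -0.01), and HPODL_00342, at levels of 118 and 96.5 with a log2 fold of -0.29 (-0.37 to -0.21).

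The phenylalanyl enzyme of the cytosol is built of alpha and beta subunits, while the mitochondrial one of budding yeast is a single chain. The beta group gene HPODL_00119 (COG0072) had levels of 592 and 491 and the alpha group gene HPODL_00049 (COG0016) of 235 and 240. Beta thus stood 2.52 times above alpha without caffeine and 2.05 times with it, and their log2 folds of -0.27 and 0.03 differed by -0.30 (-0.36 to -0.24). HPODL_05123, listed under both identifiers, had levels of 139 and 116 and a log2 fold of -0.25 (-0.32 to -0.18), lower than alpha by 0.28 and level with beta. The histidyl group COG0124 held genes of very unequal length. HPODL_03522, of 1596 bases, had levels of 186 and 155 and a log2 fold of -0.27 (-0.32 to -0.21). HPODL_01105, of 4896 bases, is 3.07 times as long and had levels of 51.2 and 53.6 and a log2 fold of 0.07 (0.01 to 0.12). Budding yeast Gcn2 is known for a domain related to this synthetase, and the tables do not say whether HPODL_01105 encodes such a kinase.

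Synthetase groups with 1 gene lay between log2 folds of -0.27 and 0.01. The arginyl gene HPODL_05091 (COG0018) had levels of 215 and 179 and a log2 fold of -0.27 (-0.31 to -0.22). HPODL_00532 (COG0173), of the bacterial type of aspartyl enzyme, had levels of 75.5 and 62.9 and a log2 fold of -0.26 (-0.34 to -0.18). Both were about 1.20-fold lower. The cysteinyl gene HPODL_02841 (COG0215) had levels of 119 and 106, a log2 fold of -0.16 (-0.22 to -0.10), and the valyl gene HPODL_01535 (COG0525) of 417 and 378, a log2 fold of -0.14 (-0.17 to -0.12). The glycyl gene HPODL_02637 (COG0423) had levels of 233 and 222 and a log2 fold of -0.07 (-0.12 to -0.03). The alanyl gene HPODL_03186 (COG0013) was even, with levels of 160 and 161 and a log2 fold of 0.01 (-0.03 to 0.05). With library totals the arginyl and the aspartyl gene stayed below 0, at -0.05 for both, and the other 4 were above 0.

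Across the 19 groups with several genes, each compared gene was set against the one of highest mean level in its group, which gave 26 pairs. In 23 of the 26 pairs the gene of lower level had the higher log2 fold, beside 58.9% of 891 pairs in 404 other COG groups. For the synthetases this held in 13 of 16 pairs and for the factors in 10 of 10. The counting interval of the difference lay above 0 in 18 pairs, below 0 in 3 and across 0 in 5. Where the levels were at least 5-fold apart it held in 15 of 15 pairs, with a median difference in log2 fold of 0.51, beside 67.3% of 297 such pairs in other groups with a median of 0.44. Where they were under 5-fold apart it held in 8 of 11, with a median of 0.02, beside 54.7% of 594 such pairs in other groups with a median of 0.071. Pairs of 1 group share their high gene, so that they are not independent. Several of the groups also join different proteins, as said above, so that the genes of a pair need not be copies of 1 enzyme or factor. HPODL_05123, listed under both phenylalanyl identifiers, enters a pair in each, whereas pairs of other groups were built only from genes with 1 COG identifier. The pair of HPODL_02694 and HPODL_00974, counted among the 18 at 0.11 (0.10 to 0.13), rests on an uncertain split of reads. Whether the share of pairs differs from that of other groups was not tested.

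**Figure D3:**
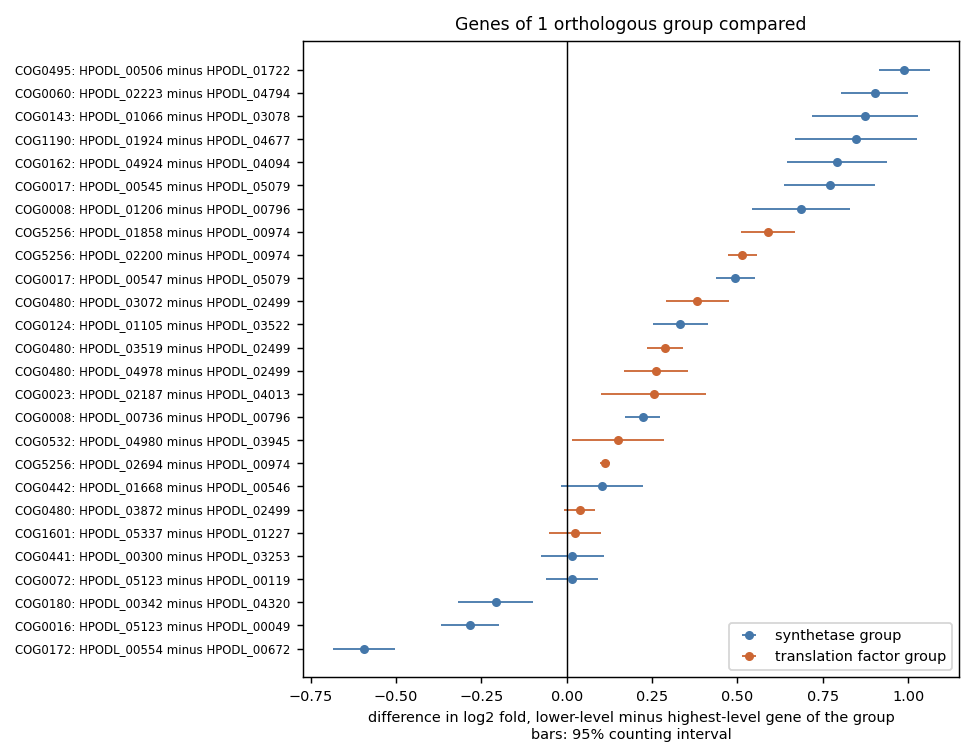
Difference in log2 fold between each gene and the highest-level gene of its COG group (x axis) for the 26 pairs, ordered by value, with 95% counting intervals as bars. The seryl, phenylalanyl alpha and tryptophanyl pairs are the 3 to the left of 0, and the leucyl pair is at the far right at 0.99.

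The same relation to level was present across all genes. Among all 4861 compared genes, 66.1% of the 1216 genes of lowest level had a log2 fold above 0, and 31.0% of the 1215 of highest level. Of the members among those 1215, 5 of 35 were above 0, with a median log2 fold of -0.25 against -0.19 for all genes there. Below the median level of all compared genes, 8 of 11 members were above 0, beside 61.9%, and their median log2 fold was 0.19 against 0.15. Across the 56 members, level and log2 fold had a Pearson r of -0.61 on the log2 level and a Spearman rho of -0.67, and across all compared genes these were -0.23 and -0.28. These are descriptions across genes of the same 2 libraries, with the level taken from the same counts as the fold, and genes are not replicates. The part of level, or of anything that goes with it, in the difference between the genes of 1 group was not tested.

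**Figure D4:**
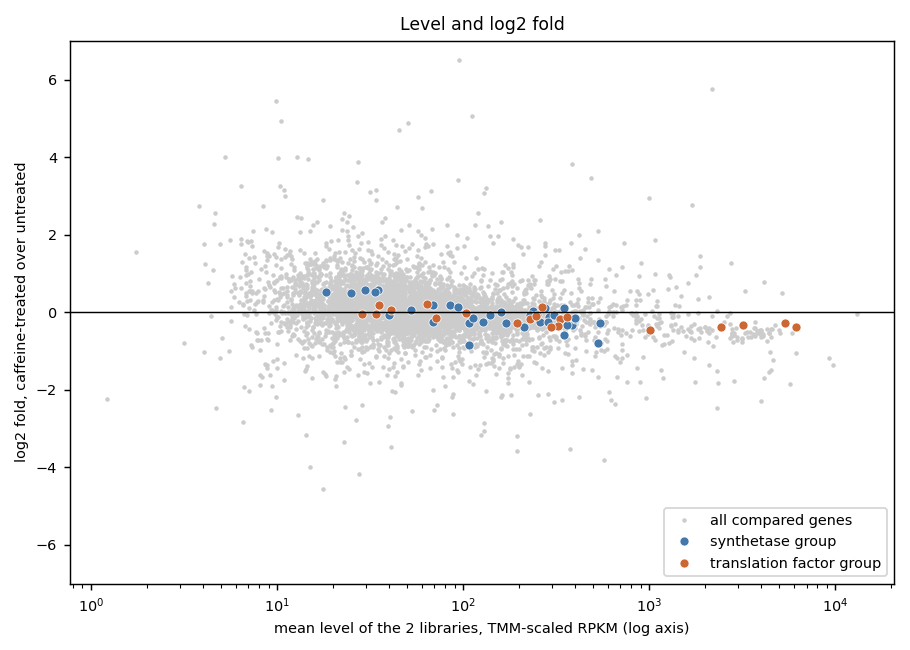
Log2 fold (y axis) against mean level in TMM-scaled RPKM (x axis, log) for all compared genes in grey, the synthetase genes and the factor genes. Members of high level lie mostly below 0 and the synthetase genes of lowest level near 0.5, within a grey cloud that spans log2 folds from -4.55 to 6.49.

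Other genes with a part in translation were taken by 20 further COG identifiers, of which 18 matched 24 rows, and 23 genes were compared. The identifiers were a mixed list set by hand. Bacterial-type organelle factors and enzymes of formylation, amidation and transfer RNA upkeep stood in it beside factors of the cytosol. Ribosomal proteins were left out, so the list does not stand for the rest of the translation machinery. The 23 genes had a median log2 fold of 0.21, with 16 above 0 and 7 below, beside 51.1% above 0 among all compared genes. None of the 23 passed 2-fold under TMM. Their median level was 84.4, against 220 for the members. The genes at least 1.5-fold apart, named after their values were seen, were 4 higher and 1 lower of 23, beside 16.5% and 13% of all compared genes. The lower one, HPODL_02976, belongs to the ABC protein group COG0488, which in budding yeast includes elongation factor 3, and had levels of 3546 and 2076 and a log2 fold of -0.77 (-0.78 to -0.76). HPODL_02742 of the same group had levels of 47.4 and 84.9 and a log2 fold of 0.84 (0.76 to 0.92). A CCA-adding enzyme gene, HPODL_00071 (COG0617), which completes the end of transfer RNA, had levels of 25.8 and 45.6 and a log2 fold of 0.83 (0.69 to 0.96). The others were a gene of the formyltransferase group COG0223, HPODL_05144, at 0.76 (0.60 to 0.92), and an initiation factor 2B type gene, HPODL_03423 (COG1184), at 0.62 (0.53 to 0.71). With library totals HPODL_02742 and HPODL_00071 passed 2-fold, at log2 folds of 1.06 and 1.04. Elongation factor 1 beta is the exchange factor of 1 alpha, and its gene HPODL_04842 (COG2092), likewise picked after its value was seen, had levels of 1476 and 1145. Its log2 fold of -0.37 (-0.40 to -0.34) was near the -0.39 of HPODL_00974.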

How the data were processed

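The authors deposited raw read counts per gene, RPKM values (a name taken from the deposited sheet), and counts scaled by TMM and by relative log expression; the deposited TMM values are a scaled signal, raw counts times 1 constant per library, and the ratio of those constants, 1.079, equals that of the effective library totals computed here. Hot phenol RNA was made into stranded mRNA libraries, per the labels' protocols. Bowtie2 is named in the submitters' processing notes. No version, counting tool, genome build or strand setting is given in the sources used. The quartile summary and the relative log expression table were not used.

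TMM factors from edgeR 4.0.16 (R 4.3.3) set the effective library sizes at 17788292 reads (untreated) and 19186645 reads (caffeine-treated). Genes with 10 CPM or more of the unscaled library total in either library were compared (4861 of 5325 protein-coding genes by the RefSeq table). Levels divide by the listed length, the span from start to end. The deposited RPKM served as an alternative for the order of levels. Fold intervals were obtained from the exact Clopper-Pearson bounds on the share of a gene's counts that came from the treated library, and those of differences between genes use the normal form for a log ratio of 4 counts. All intervals are 95%, cover counting error only and treat reads as independent. Reads copied by PCR and not tagged per molecule are not independent, so the intervals may be too narrow even for that error. Having 1 library per group, edgeR and DESeq2 gave scaling factors and no test. The fold calculation was run on simulated counts that held counting error only, the error that the intervals assume. That run checks the arithmetic and says nothing of variation between cultures.

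The members and lists were chosen with earlier results of these data known, and COG functions come from general knowledge. The naming rule took every gene of a group with several members, every gene at least 1.5-fold apart, and of the groups with 1 gene the 5 of highest and the 5 of lowest level; as this left out few, all 57 members are named. Of the further translation genes those past 2-fold were to be named, and under TMM there were none.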

Additional observations from a re-analysis of the deposited data

How the results depend on the processing

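With library totals the median log2 fold became 0.10 for the synthetases, 0.079 for the factors and 0.42 for the further translation genes, and 34 members lay above 0 and 22 below, because this scaling adds 0.22 to every log2 fold; 17 members changed sign, all from below to above 0. With 1 gene per group, the one of highest level, the medians were -0.26 and -0.32, since the low genes drop out. With a limit of 1.5-fold in place of 2-fold, 2 members passed in place of 0. DESeq2 size factors moved every log2 fold by -0.01, and with them, with 5 CPM added to both libraries, or with no filter on low counts, the medians and counts of members stayed within their limits. The order of level held in 26 of 26 pairs with the deposited RPKM or with the untreated library alone and in 24 with the caffeine-treated library alone. The lower gene had the higher log2 fold in 23 pairs with 5 CPM added or with library totals. Adding the counts of the 2 equal-length COG5256 genes was chosen after seeing the data and gave a log2 fold of -0.33 in place of -0.39. No paired analysis was possible because each group is 1 library.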
